A study of Mus musculus with 21 samples.

Results

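The 10 genes of muscle atrophy and autophagy described here were measured in heart ventricles of male mice with and without Taz, a gene on chromosome X. The set was chosen by gene symbol: Fbxo32, Trim63, Trim54, Fbxo30, Foxo1, Foxo3, Bnip3, Map1lc3b, Sqstm1 and Gabarapl1. All 10 symbols were found among the 14732 genes of the deposited table, and all 10 were among the 12333 genes that passed the filter on low counts. Each had reads in every library, from 16 reads for Fbxo30 to 7111 for Sqstm1.

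The animals were 2 months old, and each background held TAZ KO/Y mice (here KO) and their TAZ WT/Y littermates (here WT). In the background labelled BL6J there were 4 WT and 4 KO libraries, in AJ-F1 4 WT and 3 KO, and in CAST-F1 3 WT and 3 KO, which made 21 libraries in 6 groups. All groups share sex, age and tissue. The labels do not give the parents of the F1 mice, the way the Taz allele was made, the litter of each animal or the number of animals behind a library. The p-values therefore measure the spread between these samples.

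Taz encodes tafazzin, the mitochondrial enzyme that remodels cardiolipin. Taz stood at 36.5 to 61.0 CPM (counts scaled to a common library size) in the WT libraries and at 1.07 to 6.07 CPM in the KO libraries, so that every library matched its label. Totals were 3848172 to 10738130 counts per library. The 10 cardiomyocyte markers summed to 67560 to 103260 CPM in each library, and the 4 of 10 skeletal muscle markers in the table summed to at most 3.12 CPM. That list of 10 includes Myh1, Myh2 and Myh4, which define fast skeletal fibres, and none of its genes passed the filter on low counts. In bulk tissue, fewer cells of a type and less RNA per cell cannot be told apart.

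Striated muscle breaks down its proteins by the proteasome and by autophagy. FOXO transcription factors, held inactive by insulin and growth factor signalling, switch on the muscle ubiquitin ligases atrogin-1 (Fbxo32) and MuRF1 (Trim63) together with autophagy genes. In autophagy, small ubiquitin-like proteins of the ATG8 family, such as LC3B (Map1lc3b) and GABARAPL1, are attached to the growing membrane and bind cargo receptors such as p62 (Sqstm1) and the mitochondrial receptor BNIP3.

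The proximal promoters of Trim63, Sqstm1 and Gabarapl1 are shown because these genes passed the test in at least 2 backgrounds. RefSeq windows on GRCm38.p6, from 250 bases before to 50 bases after the start, were found for 9 of the 10 genes, the exception being Fbxo32. The 250 bases before each start are printed in the direction of transcription, with capitals for a match to the FOXO motif GTAAACA on either strand. Trim63 lies on the plus strand (chr4:134314870-134315119), Sqstm1 on the minus strand (chr11:50210821-50211070) and Gabarapl1 on the plus strand (chr6:129532942-129533191).
Trim63: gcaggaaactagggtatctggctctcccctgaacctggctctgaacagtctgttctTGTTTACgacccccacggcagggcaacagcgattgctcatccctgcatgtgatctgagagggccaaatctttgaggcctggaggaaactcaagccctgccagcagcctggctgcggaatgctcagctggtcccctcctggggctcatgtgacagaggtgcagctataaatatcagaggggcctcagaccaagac
Sqstm1: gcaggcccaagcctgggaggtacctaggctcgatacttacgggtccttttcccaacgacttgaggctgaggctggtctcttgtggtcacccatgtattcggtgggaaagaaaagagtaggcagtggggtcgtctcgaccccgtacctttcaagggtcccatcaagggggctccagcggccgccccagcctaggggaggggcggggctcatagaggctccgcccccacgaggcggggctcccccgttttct
Gabarapl1: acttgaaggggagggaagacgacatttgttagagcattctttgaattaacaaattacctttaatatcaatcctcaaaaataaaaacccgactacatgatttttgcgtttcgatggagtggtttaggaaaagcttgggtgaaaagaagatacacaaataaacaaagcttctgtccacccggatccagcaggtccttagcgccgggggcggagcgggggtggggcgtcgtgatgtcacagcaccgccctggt

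The FOXO letters were found once in the Trim63 window, 194 bases before the start and on the opposite strand, and in none of the other 8 windows. They occur in 3.65% of 32851 promoter windows of the same length. The E-box CACGTG, read by TFEB and other factors, was found in the Bnip3 window (7.15% of all windows hold it). The antioxidant motif TGACNNNGC was found in the Map1lc3b window (12.4%), and the stress motif TGATGNAA in none of the 9 (3.97%). Both strands were searched and no matches overlapped. The Sqstm1 and Gabarapl1 windows held none of the 4 motifs, and a match or its absence describes these letters only.

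The comparison of KO with WT hearts asked how these genes respond to loss of Taz within each background. Sqstm1 and Gabarapl1 rose in the KO hearts of all 3 backgrounds, Sqstm1 by 0.87 to 1.43 and Gabarapl1 by 0.67 to 0.84 on the log2 scale. Trim63 fell in BL6J and CAST-F1, and Fbxo30 rose in AJ-F1. Fbxo32, Trim54, Foxo1, Foxo3, Bnip3 and Map1lc3b passed the test in no single background. Thus 3 of the 10 genes were called in BL6J (2 higher, 1 lower), 3 in AJ-F1 (3 higher) and 3 in CAST-F1 (2 higher, 1 lower). Among all genes tested, 22.3% were called in BL6J, 28.5% in AJ-F1 and 20.3% in CAST-F1, so the share of the set was near that of all genes. By direction, 12.8% of all genes were higher and 9.51% lower in BL6J, 12.9% and 15.7% in AJ-F1, and 10.7% and 9.59% in CAST-F1. Sqstm1 and Gabarapl1 were the 2 members called higher in all 3 backgrounds, beside 5.99% of all genes. The median log2 fold change of the 10 genes was -0.16, 0.18 and -0.24 in BL6J, AJ-F1 and CAST-F1, beside 0.01, 0.01 and -0.02 for all genes. Calls are from edgeR's quasi-likelihood test at a Benjamini-Hochberg adjusted p under 0.05 over all 12333 genes.

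**Figure D1:**
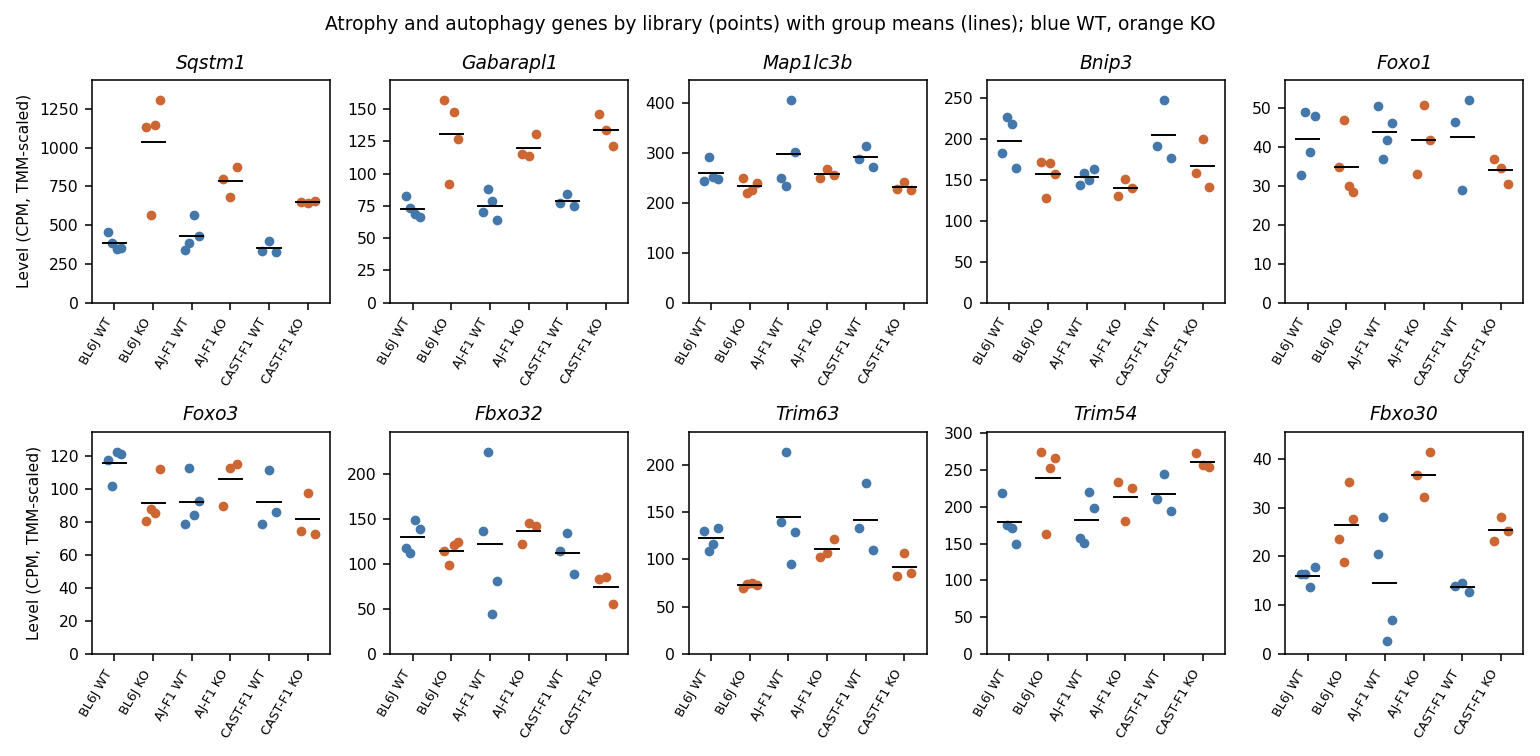
Level of each gene in CPM (y axis, from 0) in every library (points; blue WT, orange KO) of the 6 groups (x axis), with the group mean as a line. Sqstm1 and Gabarapl1 are higher in every KO library than in any WT library of the same background. The same holds for 15.5%, 14.1% and 24% of all genes in BL6J, AJ-F1 and CAST-F1. AJ-F1 WT libraries spread from 2.62 to 28.1 CPM for Fbxo30.

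Sqstm1 (chromosome 11, 50199366 to 50210827, minus strand, GRCm38) encodes p62, which binds ubiquitin-marked cargo and the ATG8 proteins and is itself degraded by autophagy. BL6J WT libraries 1 to 4 held 453, 384, 349 and 351 CPM of Sqstm1, and BL6J KO libraries 1 to 4 held 1132, 568, 1144 and 1306 CPM. AJ-F1 WT libraries held 340, 385, 564 and 429 CPM and AJ-F1 KO libraries 798, 679 and 874 CPM. CAST-F1 WT libraries held 333, 399 and 325 CPM and CAST-F1 KO libraries 650.2, 646 and 653 CPM. KO and WT libraries did not overlap in any background, where 15.5%, 14.1% and 24% of all genes were higher without overlap in BL6J, AJ-F1 and CAST-F1. BL6J KO 2 stood well below the other BL6J KO libraries.

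The log2 fold change of Sqstm1 was 1.43 ± 0.20 (SE) in BL6J (n = 4 and 4; edgeR adjusted p = 1.07e-05). It was 0.87 ± 0.21 in AJ-F1 (n = 4 WT and 3 KO; edgeR adjusted p = 0.00343) and 0.88 ± 0.22 in CAST-F1 (n = 3 and 3; edgeR adjusted p = 0.00657). The response in AJ-F1 was lower than that in BL6J by 0.56 ± 0.28 and that in CAST-F1 by 0.55 ± 0.29, and neither difference passed the test (edgeR adjusted p = 0.464 and 1). Sqstm1 shares 17.3% of its exon bases with Mrnip on the opposite strand, and the use of strand in counting is not given in the sources used here. Mrnip itself stood at 2.10 to 5.55 CPM in all libraries and passed the test in none of the backgrounds.

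Gabarapl1 (chromosome 6, 129533160 to 129542346, plus strand) encodes an ATG8 protein of the GABARAP branch. Its level was 83.0, 73.5, 68.5 and 66.0 CPM in BL6J WT and 157, 91.9, 148 and 126 CPM in BL6J KO. It was 69.9, 88.2, 78.7 and 63.8 CPM in AJ-F1 WT and 115, 113 and 131 CPM in AJ-F1 KO. It was 77.1, 84.4 and 74.9 CPM in CAST-F1 WT and 146, 134 and 122 CPM in CAST-F1 KO. Every KO library lay above every WT library, also across backgrounds, and BL6J KO 2 was again the lowest KO library. The margin was narrow, from 88.2 CPM in AJ-F1 WT 2 to 91.9 CPM in BL6J KO 2. Within BL6J, AJ-F1 and CAST-F1, 15.5%, 14.1% and 24% of all genes were higher without overlap. The share across backgrounds was not computed.

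The log2 fold change of Gabarapl1 was 0.84 ± 0.15 in BL6J (edgeR adjusted p = 0.000213), 0.67 ± 0.16 in AJ-F1 (edgeR adjusted p = 0.00315) and 0.76 ± 0.17 in CAST-F1 (edgeR adjusted p = 0.00248). The responses differed between backgrounds by 0.17 or less in size, with standard errors of 0.22 to 0.23. Gabarapl1 shares 28.3% of its exon bases with 1700101I11Rik on the opposite strand, which was not analysed here.

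Map1lc3b (chromosome 8, 121590361 to 121598760), the gene of LC3B, did not rise with Gabarapl1. Its lowest and highest levels were 245 and 292 CPM in BL6J WT and 220 and 249 CPM in BL6J KO. AJ-F1 libraries ranged from 235 to 406 CPM (WT) and from 250 to 268 CPM (KO), and those of CAST-F1 from 273 to 314 CPM (WT) and from 226 to 241 CPM (KO). The KO libraries were below the WT libraries without overlap in CAST-F1 only, where 22.6% of all genes did the same. The log2 fold change was -0.15 ± 0.14 in BL6J, -0.21 ± 0.15 in AJ-F1 and -0.33 ± 0.16 in CAST-F1 (edgeR adjusted p = 0.486, 0.304 and 0.148). Without AJ-F1 WT 3, which held the 406 CPM, the value in AJ-F1 was -0.03 and that in CAST-F1 was -0.31 and passed (edgeR adjusted p = 0.0444). Without AJ-F1 WT 3 and 4 together, the value in AJ-F1 was 0.09. The value in CAST-F1 passed in 4 of 30 alternatives. Among these were limma-voom (-0.33, limma-voom adjusted p = 0.00343) and CAST-F1 fitted alone (-0.33, edgeR adjusted p = 0.0259).

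Bnip3 (chromosome 7, 138890836 to 138909519), a receptor of the outer mitochondrial membrane that hypoxia and FOXO3 induce, ranged from 165 to 227 CPM in BL6J WT and from 128 to 172 CPM in BL6J KO. Its range was 144 to 163 CPM in AJ-F1 WT, 131 to 151 CPM in AJ-F1 KO, 176 to 247 CPM in CAST-F1 WT and 141 to 200 CPM in CAST-F1 KO. KO and WT overlapped in every background. The log2 fold changes were -0.33 ± 0.14, -0.13 ± 0.15 and -0.30 ± 0.16 in BL6J, AJ-F1 and CAST-F1 (edgeR adjusted p = 0.100, 0.546 and 0.217). Bnip3 shares 22.3% of its exon bases with Gm45507 on the opposite strand, so the limit on strand holds here too.

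**Figure D2:**
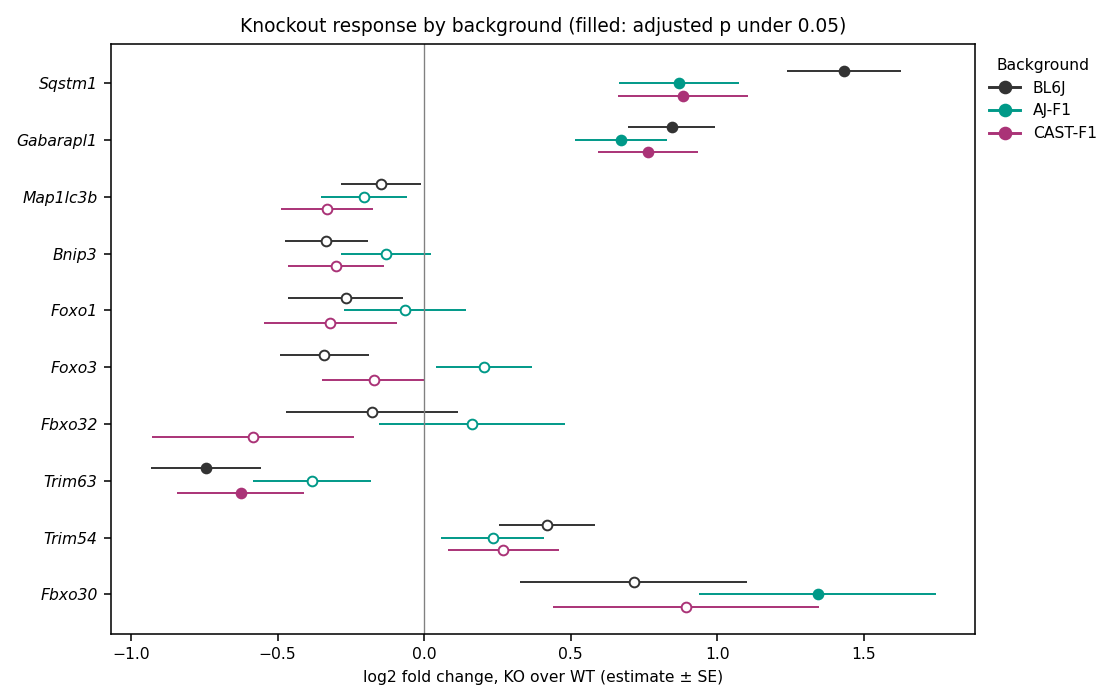
The log2 fold change of KO over WT (x axis, estimate ± SE) for each gene (y axis) in the 3 backgrounds (colours). Filled points passed an adjusted p of 0.05; these are Sqstm1 and Gabarapl1 in every background, Trim63 in BL6J and CAST-F1, and Fbxo30 in AJ-F1.

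Foxo1 and Foxo3 showed no called change in any single background. Foxo1 (chromosome 3, 52268336 to 52353221) had group means between 34.0 and 43.9 CPM, with log2 fold changes of -0.27 ± 0.20, -0.07 ± 0.21 and -0.32 ± 0.23 in BL6J, AJ-F1 and CAST-F1. Foxo3 (chromosome 10, 42181841 to 42276755) had group means between 81.8 and 116 CPM, with -0.34 ± 0.15, 0.20 ± 0.16 and -0.17 ± 0.18 in the same order. These factors are controlled largely by phosphorylation and location, which RNA levels do not measure. The smallest edgeR adjusted p among these values was 0.119, for Foxo3 in BL6J, and Foxo3 passed there when each background was fitted alone (edgeR adjusted p = 0.0477). The other FOXO genes of the wider lists, Foxo4 and Foxo6, fell in all 3 backgrounds and are described with those lists.

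Trim63 (chromosome 4, 134315120 to 134329629) encodes MuRF1, a ubiquitin ligase of the sarcomere that marks thick filament proteins for the proteasome. It stood at 130, 109, 116 and 133 CPM in BL6J WT and at 70.1, 73.7, 75.2 and 72.5 CPM in BL6J KO. AJ-F1 WT libraries held 140, 214, 94.8 and 129 CPM and AJ-F1 KO libraries 103, 107 and 122 CPM. CAST-F1 WT libraries held 133, 181 and 110 CPM and CAST-F1 KO libraries 82.3, 107 and 85.7 CPM. The KO libraries were lower without overlap in BL6J and CAST-F1, as were 12.9% and 22.6% of all genes there. In AJ-F1, where 14.9% of all genes were lower without overlap, WT library 3 was below all KO libraries.

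Trim63 fell by 0.75 ± 0.19 on the log2 scale in BL6J (edgeR adjusted p = 0.00569) and by 0.63 ± 0.22 in CAST-F1 (edgeR adjusted p = 0.0437). In AJ-F1 the value was -0.38 ± 0.20 (edgeR adjusted p = 0.158), and without AJ-F1 WT 3 it was -0.55 and passed (edgeR adjusted p = 0.0239). The call in CAST-F1 was lost in 13 of 30 other settings or libraries left out. Without CAST-F1 WT 2, the highest of its group, the value was -0.39 (edgeR adjusted p = 0.286). The difference between the AJ-F1 and BL6J responses was 0.36 ± 0.27 and was not called (edgeR adjusted p = 0.630).

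Fbxo32 (chromosome 15, 58175879 to 58214932) encodes atrogin-1, the substrate receptor of another muscle ubiquitin ligase. Its levels were 118, 113, 149 and 140 CPM in BL6J WT and 114, 99.1, 121 and 124 CPM in BL6J KO. In AJ-F1 they were 137, 225, 45.1 and 81.6 CPM in WT and 122, 146 and 142 CPM in KO. In CAST-F1 they were 114, 135 and 89.0 CPM in WT and 83.8, 85.9 and 55.8 CPM in KO. AJ-F1 WT libraries thus enclosed the AJ-F1 KO libraries on both sides, BL6J groups overlapped, and CAST-F1 groups did not. In CAST-F1 22.6% of all genes were likewise lower without overlap.

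The log2 fold change of Fbxo32 was -0.18 ± 0.29 in BL6J, 0.16 ± 0.32 in AJ-F1 and -0.58 ± 0.34 in CAST-F1 (edgeR adjusted p = 0.723, 0.724 and 0.259). The intervals of 2 SE ran from -0.77 to 0.41 in BL6J, from -0.47 to 0.80 in AJ-F1 and from -1.27 to 0.11 in CAST-F1. In AJ-F1 the estimate ran from -0.13 without WT 3 to 0.64 without WT 2, so that its direction depended on single WT libraries. The value in CAST-F1 passed in 2 of 30 alternatives. These were limma-voom (-0.61, limma-voom adjusted p = 0.00914) and the fit without AJ-F1 WT 3 and 4 together (-0.59, edgeR adjusted p = 0.0224). The latter was chosen after seeing the data.

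Fbxo30 (chromosome 10, 11281330 to 11298052) encodes a ubiquitin ligase subunit that is known in mouse skeletal muscle as MUSA1 and promotes atrophy there. It was the least abundant gene of the set, at 16.3, 16.4, 13.7 and 17.9 CPM in BL6J WT and 23.5, 18.9, 35.2 and 27.7 CPM in BL6J KO. AJ-F1 WT libraries held 20.4, 28.1, 2.62 and 6.92 CPM and AJ-F1 KO libraries 36.6, 32.2 and 41.4 CPM. CAST-F1 WT libraries held 13.9, 14.5 and 12.7 CPM and CAST-F1 KO libraries 23.1, 28.1 and 25.1 CPM. Every KO library was above every WT library of its background, as for 15.5%, 14.1% and 24% of all genes in BL6J, AJ-F1 and CAST-F1.

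Fbxo30 rose by 1.34 ± 0.40 on the log2 scale in AJ-F1 (edgeR adjusted p = 0.0165). The values in BL6J (0.71 ± 0.39, edgeR adjusted p = 0.206) and CAST-F1 (0.89 ± 0.45, edgeR adjusted p = 0.181) were not called. Fbxo30 passed in both when each background was fitted alone (edgeR adjusted p = 0.0101 in BL6J and 0.00042 in CAST-F1) and with limma-voom (adjusted p = 0.0114 and 0.00529). The spread that all groups share in this test includes AJ-F1 WT 3 and 4. Without these 2 libraries, a setting chosen after seeing the data, Fbxo30 was called in all 3 backgrounds, at 0.71 in BL6J, 0.60 in AJ-F1 and 0.89 in CAST-F1 (edgeR adjusted p = 0.00209, 0.0317 and 0.00132). The AJ-F1 call was lost without AJ-F1 WT 4 alone (1.10, edgeR adjusted p = 0.0556) without AJ-F1 KO 3 (1.23, edgeR adjusted p = 0.0702) or with each background fitted alone (1.34, edgeR adjusted p = 0.174), and the value without AJ-F1 WT 3 was 1.00.

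Trim54 (chromosome 5, 31116712 to 31137630) encodes MuRF3, a relative of MuRF1 that binds microtubules and the Z-disc. It ranged from 149 to 219 CPM in BL6J WT and from 163 to 275 CPM in BL6J KO, where KO 2 was the lowest library. The ranges were 151 to 220 and 181 to 234 CPM in AJ-F1 and 194 to 245 and 254 to 273 CPM in CAST-F1, WT before KO. Its log2 fold changes were 0.42 ± 0.16, 0.23 ± 0.18 and 0.27 ± 0.19 in BL6J, AJ-F1 and CAST-F1 (edgeR adjusted p = 0.0733, 0.334 and 0.353). The value in BL6J passed in 5 of 30 alternatives. Among these were the fits without BL6J KO 2 (0.56, edgeR adjusted p = 0.0104) or without BL6J WT 1 (0.53, edgeR adjusted p = 0.0343). It also passed with limma-voom (0.47, limma-voom adjusted p = 0.00715). Trim54 shares 26.6% of its exon bases with Gm15469 on the opposite strand, with the same limit. Trim54 and Trim63, close relatives in sequence family, thus had log2 fold changes of opposite sign in every background.

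Averaged over the 3 backgrounds, 7 of the 10 genes were called, 4 higher and 3 lower, beside 47.9% of all genes (23.7% higher and 24.2% lower). Sqstm1 (1.06 ± 0.12), Fbxo30 (0.98 ± 0.24), Gabarapl1 (0.76 ± 0.09) and Trim54 (0.31 ± 0.10) rose. Trim63 (-0.59 ± 0.12), Bnip3 (-0.25 ± 0.09) and Map1lc3b (-0.23 ± 0.08) fell, with edgeR adjusted p of 0.000303, 0.0222 and 0.031. The calls of Map1lc3b and Bnip3 were lost without CAST-F1 WT 2 or CAST-F1 KO 3, with values of -0.20 to -0.22. Map1lc3b also lost it without BL6J WT 2 (-0.21) or AJ-F1 KO 1 (-0.23), and without AJ-F1 WT 3 and 4 together (-0.14).

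BL6J KO 2 held the lowest KO level of its background for Sqstm1, Gabarapl1, Trim54, Fbxo30, Fbxo32, Map1lc3b and Bnip3, and the highest for Foxo1. Its summed endothelium markers were 1863 CPM, above the 813 to 1399 CPM of the other BL6J KO libraries and within the 1480 to 2092 CPM of BL6J WT. Without it, Sqstm1 and Gabarapl1 had log2 fold changes of 1.63 and 0.97 in BL6J. The part of this library's makeup in the spread was not tested.

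**Figure D3:**
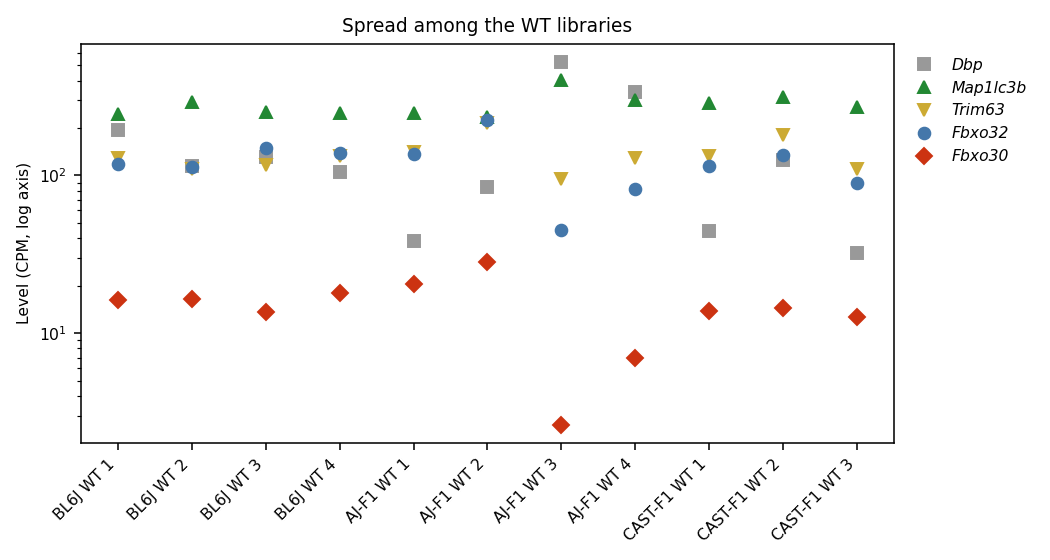
Level in CPM (y axis, log scale) of Dbp, Map1lc3b, Trim63, Fbxo32 and Fbxo30 in each of the 11 WT libraries (x axis). AJ-F1 WT 3 has the highest Dbp (525 CPM) and Map1lc3b (406 CPM) and the lowest Trim63, Fbxo32 and Fbxo30 of all WT libraries.

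The spread among AJ-F1 WT libraries bears on several of these results. AJ-F1 WT 3 and 4 were low in Fbxo32 and Fbxo30 and were the highest WT libraries in Dbp, a clock output gene with a strong daily rhythm, at 525 and 337 CPM beside 32.4 to 194 CPM in the other 9 WT libraries. Dbp was singled out after its values were seen. AJ-F1 WT 3 also had the highest summed fibroblast markers of its group (2296 CPM, beside 1218 to 1613 CPM). The spread was not limited to these genes. Over all tested genes, pairs of AJ-F1 WT libraries correlated at 0.895 to 0.980 in log2 CPM, beside at least 0.9635 within each other group. AJ-F1 WT 3 and 4 had the lowest TMM factors, 0.860 and 0.930, with CAST-F1 WT 2 next at 0.932. All AJ-F1 KO libraries had low Dbp (12.2 to 29.4 CPM), and low values were not limited to that background. Dbp stood at 34.9 to 87.2 CPM in BL6J KO, beside 105 to 194 CPM in BL6J WT. In CAST-F1 it stood at 28.1 to 50.5 CPM (KO) and 32.4 to 126 CPM (WT). The labels give no time of collection, and the part of these differences in the KO against WT values was not tested. Sqstm1 and Gabarapl1 kept their calls in all 3 backgrounds under every one of the 30 alternatives.

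Markers of other cell types moved with genotype beside these genes. Endothelium markers fell for 9 of 10 in AJ-F1 KO and for 2 of 10 in BL6J KO, and all 10 fell in the average over backgrounds. Of all genes, 9.51%, 15.7% and 9.59% were called lower in BL6J, AJ-F1 and CAST-F1, and 24.2% in the average. The shares called higher were 12.8%, 12.9% and 10.7% in the 3 backgrounds. Their summed level in AJ-F1 was 1635 to 3002 CPM in WT libraries and 820 to 1448 CPM in KO libraries. In CAST-F1 the sums also did not overlap, at 1907 to 3018 CPM (WT) and 1529 to 1845 CPM (KO), with 0 of 10 markers called by edgeR there, 3 at an unadjusted p under 0.05, 0 with DESeq2 and 4 with limma-voom. Fibroblast markers fell for 8 of 9 in AJ-F1 KO, where the sum was 677 to 742 CPM beside 1218 to 2296 CPM in WT. In BL6J 2 fibroblast markers fell and 1 rose, with sums of 952 to 1347 CPM (WT) and 778 to 950 CPM (KO). Cardiomyocyte markers fell for 5, 3 and 5 of 10 in BL6J, AJ-F1 and CAST-F1, and 1 rose in CAST-F1. Their sums were 88942 to 102490 CPM (WT) and 67834 to 75358 CPM (KO) in BL6J and 84530 to 94585 CPM (WT) and 67560 to 74513 CPM (KO) in AJ-F1, and overlapped in CAST-F1.

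Among the 7 atrium markers, Nppa, the gene of atrial natriuretic peptide that stressed ventricle also expresses, carried most of the summed level in KO hearts of BL6J and CAST-F1. Nppa rose by 2.66 in BL6J, from a mean of 229 to 1449 CPM, and by 5.37 in CAST-F1, from 45.9 to 1896 CPM, and stood at 0.73 in AJ-F1 (edgeR adjusted p = 0.000525, 5.93e-06 and 0.291). Bmp10 also rose in BL6J (2.86), from a mean of 0.95 to 6.96 CPM. In CAST-F1 Nppa was the 1 atrium marker called higher, Stard10 fell (-0.81), and Sln stood at -0.44. Myl4 stood at 2.36, 1.32 and 1.82 in BL6J, AJ-F1 and CAST-F1, Myl7 at 2.11, 1.15 and 1.67, and Dkk3 at 1.27, 0.58 and 1.16. None of these was called, with standard errors of 0.75 to 1.26. Sln was at 0.56 and -0.18 and Stard10 at 0.17 and -0.26 in BL6J and AJ-F1. At an unadjusted p under 0.05 (edgeR) there were 4, 0 and 2 of the 7 markers. After adjustment 2, 0 and 2 were called, beside 22.3%, 28.5% and 20.3% of all genes in BL6J, AJ-F1 and CAST-F1. The part of atrial tissue in these values was not tested. Macrophage sums were 272 to 515 CPM in BL6J WT and 335 to 684 CPM in BL6J KO, and overlapped between KO and WT in each background. Erythroid sums varied most among WT libraries, from 13.5 to 2469 CPM in BL6J WT. The part of cell makeup in the values of the 10 genes was not tested.

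Between the WT groups no gene of the set was called: 0 of 10 for AJ-F1 against BL6J, for CAST-F1 against BL6J and for CAST-F1 against AJ-F1 (edgeR), beside 3.26%, 5.73% and 5.26% of all genes. At an unadjusted p under 0.05 there were 2 (Foxo3 and Bnip3), 0 and 1 (Bnip3), DESeq2 called 0 in each, and limma-voom called Foxo3 in CAST-F1 against BL6J. Bnip3 was lower in every AJ-F1 WT library than in any WT library of BL6J or CAST-F1, as were 3.73% of all genes against BL6J and 7.12% against CAST-F1. Its log2 fold change was -0.37 ± 0.14 against BL6J (edgeR adjusted p = 0.144). The 3 tests of a difference in KO response between backgrounds also called 0 of 10 genes (edgeR, DESeq2 and limma-voom), beside 0.00811%, 0.0324% and 0.0892% of all genes. At an unadjusted p under 0.05 Foxo3 was the 1 gene, with a response 0.54 ± 0.22 higher in AJ-F1 than in BL6J (edgeR adjusted p = 0.395).

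Levels per length order the genes within a library group. Levels were divided by the kilobases of all annotated exons of the gene and are given as mean ± SD of the libraries. In BL6J WT they were 125 ± 20.3 CPM per kb for Trim54 and 114 ± 14.4 for Sqstm1, and these ranges overlapped. Next came Bnip3 with 87.6 ± 12.8 CPM per kb, then Trim63, Gabarapl1 and Map1lc3b with 43.0 ± 4.00, 36.1 ± 3.73 and 34.5 ± 2.93. The ranges of Trim63 and Gabarapl1 overlapped, as did those of Gabarapl1 and Map1lc3b. Fbxo32 (18.6 ± 2.51 CPM per kb) and Foxo3 (15.3 ± 1.27) followed, with ranges that also overlapped, and Foxo1 (4.86 ± 0.90) and Fbxo30 (3.09 ± 0.34) were lowest. Overlap of these ranges leaves out that the genes were measured in the same libraries. Taken library by library, Trim63 stood above Gabarapl1 and Fbxo32 above Foxo3 in every BL6J WT library. The order of Trim54 and Sqstm1 and that of Gabarapl1 and Map1lc3b varied between libraries. In BL6J KO, Sqstm1 led with 309 ± 96.1 CPM per kb and Gabarapl1 stood at 64.9 ± 14.3, above Map1lc3b (31.1 ± 1.76) and Trim63 (25.6 ± 0.76). All annotated exons together span 7517 bases for Map1lc3b and 2013 for Gabarapl1, which need not be the length of the transcripts present. In CPM, Map1lc3b was above Gabarapl1, at 259 and 72.8 in BL6J WT and 234 and 131 in BL6J KO. The order of these genes therefore depends on the length used.

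The genes whose 6 group means were most like those of a member were found by the root mean square difference of centred log2 CPM, among 10792 genes. For Sqstm1 these were Serf1 (0.06), Dhx37 (0.08) and Efhd2 (0.09). For Gabarapl1 they were Rpl37 (0.04), Msto1 (0.04) and Dhx32 (0.05), and for Trim63 Tuba4a, Eci1 and Mex3d (0.06, 0.07 and 0.07). This is a description over 6 groups.

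In the authors' deposited table, the comparison within AJ-F1 gave Sqstm1 a log2 fold change of 0.87 (adjusted p = 0.00581), Gabarapl1 0.67 (0.000409 as adjusted p) and Fbxo30 1.33 (0.0107 as adjusted p). The authors' deposited table also pools BL6J and CAST-F1, identified here by computing the same comparison again, and there Sqstm1 stood at 1.22, Gabarapl1 at 0.80, Trim63 at -0.70, Fbxo30 at 0.77, Trim54 at 0.34 and Bnip3 at -0.33, each with an adjusted p under 0.05. The smallest adjusted p of a strain by genotype difference among the 10 genes in the authors' deposited table was 0.398, for Foxo3. These values rest on the same libraries and are not independent.

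**Figure D4:**
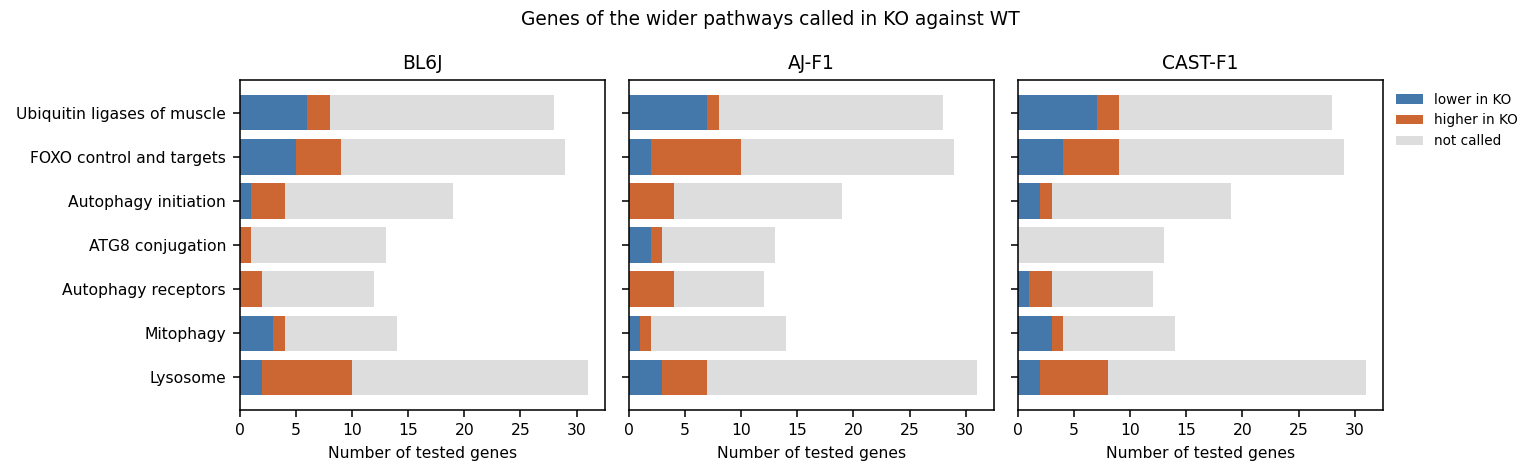
Number of tested genes (x axis) of 7 wider gene lists (y axis) that were lower (blue), higher (orange) or not called (grey) in KO against WT, one panel per background. Genes of the ubiquitin ligase list, which also holds Usp14, Usp19 and Bag3, were mostly lower among those called (6, 7 and 7 lower, and 2, 1 and 2 higher).

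The wider pathways were covered by 7 lists, whose counts stand beside 22.3%, 28.5% and 20.3% of all genes called in BL6J, AJ-F1 and CAST-F1 (12.8%, 12.9% and 10.7% higher; 9.51%, 15.7% and 9.59% lower). The list of ubiquitin ligases of muscle held 28 other genes, among them Usp14, Usp19 and Bag3, which are not ligases. In BL6J 6 of the 28 fell and 2 rose, and in AJ-F1 7 fell and 1 rose. In CAST-F1 7 fell and 2 rose. Usp19 was among those that fell in BL6J (-0.38), and Bag3 among those that fell in CAST-F1 (-0.76). The median log2 fold changes were -0.19, -0.10 and -0.16. The called genes were 28.6%, 28.6% and 32.1% of the list, at or above the share of all genes. The AJ-F1 total of 8 was 14 without AJ-F1 WT 2 and 5 without AJ-F1 KO 3, and the CAST-F1 total of 9 was 5 without CAST-F1 KO 1. Trim72, a membrane repair protein with ligase activity, fell by 0.55, 0.91 and 1.09 on the log2 scale in BL6J, AJ-F1 and CAST-F1. Asb2 fell by 0.84, 0.74 and 1.01, and Fbxo31 by 0.82, 0.76 and 1.03. Asb15 fell by 1.08 in BL6J and 1.12 in CAST-F1 and stood at -0.35 in AJ-F1.

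Of 29 tested genes of FOXO control and FOXO targets, 4 rose and 5 fell in BL6J, 8 rose and 2 fell in AJ-F1, and 5 rose and 4 fell in CAST-F1 (medians -0.16, 0.18 and -0.07). These are 31%, 34.5% and 31% of the list, above the share of all genes in each background. The BL6J total of 9 was 5 without BL6J WT 4. Foxo4 fell by 0.63, 0.51 and 0.73 on the log2 scale (edgeR adjusted p = 0.00168, 0.0121 and 0.00169), and Foxo6, a gene at 8.11 CPM or less in each group mean, fell by 1.65, 2.11 and 1.87 (edgeR adjusted p = 0.0103, 0.00173 and 0.0201). Both were singled out after their values were seen. The Foxo4 call was lost in AJ-F1 without AJ-F1 KO 2 (-0.44) or with that background fitted alone. The Foxo6 call was lost in BL6J without BL6J WT 4 (-1.21), and in CAST-F1 without WT 2 (-1.76), KO 1 (-1.54) or KO 2 (-1.55). Deptor, an inhibitor of mTOR, rose by 2.30, 2.03 and 1.83, and Eif4ebp1, a brake on translation initiation, by 1.69, 1.15 and 1.49. Gadd45a, a growth arrest gene, rose by 2.40, 1.52 and 1.22, and Cdkn1a, the p21 gene, by 2.24, 2.65 and 1.47. All 4 are also known to respond to stress signals other than FOXO.

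Of 19 autophagy initiation genes, 3 rose and 1 fell in BL6J, 4 rose in AJ-F1, and 1 rose and 2 fell in CAST-F1 (medians -0.02, 0.15 and -0.07). These are 21.1%, 21.1% and 15.8% of the list, below the share of all genes in each background. The BL6J total of 4 was 1 or 2 without BL6J WT 1, 3 or 4 or BL6J KO 1 or 4 and 7 without AJ-F1 WT 3, the AJ-F1 total was 1 without AJ-F1 KO 3, and the CAST-F1 total of 3 was 6 without AJ-F1 WT 3. Wdr45, a lipid-binding protein gene of the growing membrane, rose by 0.82, 0.83 and 0.74. Vmp1 and Atg13 rose in BL6J (0.49 and 0.47) and AJ-F1 (0.60 and 0.63), and Wipi1 fell in CAST-F1 (-0.59). Of 13 further genes of the ATG8 family and its conjugation, 1 rose in BL6J, 1 rose and 2 fell in AJ-F1, and 0 were called in CAST-F1 (edgeR; 1 at an unadjusted p under 0.05, 0 with DESeq2 and 3 with limma-voom; medians 0.06, 0.08 and 0.10). The called shares of 7.69%, 23.1% and 0% were also below those of all genes. The BL6J total of 1 was 3 without AJ-F1 WT 3, and the AJ-F1 total of 3 was 0 without AJ-F1 WT 4 or AJ-F1 KO 3 and 5 without AJ-F1 WT 2. Gabarap rose by 0.53 in BL6J. In AJ-F1, Map1lc3a and Gabarapl2 fell (-0.53 and -0.40) and Atg4c, an ATG8 protease gene, rose (0.75). Of 30 alternatives, the Atg4c call was lost in 14, the Map1lc3a call in 6 and the Gabarapl2 call in 4. The value of Map1lc3a was -0.35 without AJ-F1 WT 3, -0.49 without AJ-F1 WT 4 and -0.42 without AJ-F1 KO 3, and that of Gabarapl2 was -0.34 without AJ-F1 WT 4 and -0.38 without AJ-F1 KO 3.

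Of 12 tested autophagy receptor genes, 2 rose in BL6J, 4 rose in AJ-F1, and 2 rose and 1 fell in CAST-F1 (medians 0.11, 0.39 and 0.03). The called shares were 16.7%, 33.3% and 25%, below that of all genes in BL6J and above it in AJ-F1 and CAST-F1. The AJ-F1 total of 4 was 7 without AJ-F1 WT 2. The BL6J total of 2 was 1 without BL6J WT 1, 3 or 4 or BL6J KO 1, 3 or 4, and the CAST-F1 total of 3 was 1 without CAST-F1 WT 1, KO 1 or KO 2. Stbd1, a glycogen-binding protein that is known to bind GABARAPL1, rose by 4.03 ± 0.32, 3.25 ± 0.32 and 5.84 ± 0.46 on the log2 scale (edgeR adjusted p = 5.47e-09, 1.68e-07 and 6.55e-09). Its means went from 7.17 to 118 CPM in BL6J, from 7.25 to 69.4 CPM in AJ-F1 and from 1.14 to 66.8 CPM in CAST-F1. The larger CAST-F1 value thus goes with a WT mean near the floor and not with a higher KO level. Tex264, a receptor for the endoplasmic reticulum, rose in BL6J (0.61) and CAST-F1 (0.74), and Optn (0.62) and Rtn3 (0.44) rose in AJ-F1. Of 14 tested mitophagy genes, 1 rose and 3 fell in BL6J, 1 rose and 1 fell in AJ-F1, and 1 rose and 3 fell in CAST-F1 (medians 0.04, 0.02 and 0.08). The called shares were 28.6%, 14.3% and 28.6%, above that of all genes in BL6J and CAST-F1 and below it in AJ-F1. The BL6J total of 4 was 2 without BL6J KO 1, and the AJ-F1 total of 2 was 4 without AJ-F1 WT 3 and 1 without AJ-F1 KO 1 or 3. Pink1, the kinase gene that marks damaged mitochondria, fell by 0.73, 0.74 and 1.03, and the phosphatase gene Pgam5 rose by 0.45, 0.53 and 0.70. Mfn2, a mitochondrial fusion gene, and Nipsnap2 fell in BL6J (-0.40 and -0.49) and CAST-F1 (-0.58 and -0.74).

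Of 31 lysosome genes, 8 rose and 2 fell in BL6J, 4 rose and 3 fell in AJ-F1, and 6 rose and 2 fell in CAST-F1 (medians 0.21, 0.00 and 0.14). The called shares were 32.3%, 22.6% and 25.8%, above that of all genes in BL6J and CAST-F1 and below it in AJ-F1. The AJ-F1 total of 7 was 11 without AJ-F1 WT 3, and the CAST-F1 total of 8 was 5 without CAST-F1 WT 1 or KO 1. The protease gene Ctsl rose by 1.91, 2.10 and 1.82, and Ctsd by 0.76, 0.58 and 0.82. Atp6v1h, a subunit gene of the proton pump, rose by 1.97, 2.13 and 1.62, and Ctsz rose by 1.21 in BL6J and 1.08 in CAST-F1. Of the 63 called values of the genes named from the 7 lists, 43 kept their call under every alternative.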

How the data were processed

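RNA of 21 heart ventricle samples was measured by stranded sequencing of polyA RNA, per the labels' protocols. The build GRCm38.p6 and the tools featureCounts, HISAT and DESeq2 are listed, per the submitters' processing notes; versions and settings are not given in the sources used here. All tests used the unnormalized counts that the authors deposited for every gene in each sample. The authors also deposited log2 fold changes and adjusted p-values of their own comparisons, per the file headers. A further 42 per-sample columns were not used.

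Genes were filtered with filterByExpr over the 6 groups, which kept 12333 of 14732. Total counts were 3848172 to 10738130 per library and TMM factors 0.860 to 1.07. edgeR's quasi-likelihood test (robust; edgeR 4.0.16 in R 4.3.3) was fitted to all libraries with 6 group means, two-sided, adjusted by Benjamini-Hochberg over all genes, threshold 0.05, and tested on simulated data. CPM are scaled with TMM factors; likeness used log2 CPM with a prior count of 2 and genes of at least 5 CPM in a group. Exon lengths and positions are from GENCODE M21.

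The members and lists were chosen with earlier results of these data known. Named were all 10 members, up to 4 genes of each list with the smallest adjusted p in the average contrast that were called in a background, and the 3 most similar genes of each member called in at least 2 backgrounds. The alternatives changed scaling (size factors of DESeq2 or the upper quartile), the filter (none, or 1 CPM reached in 3 libraries), the tool (DESeq2 1.42.0 Wald test, or weighted limma-voom from limma 3.58.1), the samples fitted together, and the libraries left out, or added a replicate block.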

Additional observations from a re-analysis of the deposited data

Results flagged for a closer look

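Map1lc3b in BL6J WT 2 stood at 292 CPM, apart from the other BL6J WT libraries at 245 to 251 CPM, with a gap of 0.865 times the range of the group. Among 30 sets of 4 libraries examined for the 10 genes this was the 1 such case, and chance alone gives about 1 in 20.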

How the results depend on the processing

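Sqstm1 and Gabarapl1 kept their calls in each background under all 30 alternatives, and Trim63 did in BL6J. With limma-voom, 4303 genes were called in BL6J and 4969 in CAST-F1, and 5 and 6 of the 10 genes. With each background fitted alone, 1323 genes were called in AJ-F1 and 4157 in CAST-F1, with 5 of the 10 genes in BL6J and 5 in CAST-F1; differences between backgrounds have no value in that setting. Leaving out each library gave 2155 to 3504 genes in BL6J, 2135 (without AJ-F1 KO 3) to 4580 in AJ-F1 and 1810 to 3288 in CAST-F1, and 3 to 4, 2 to 4 and 2 to 5 of the 10 genes. Without AJ-F1 WT 3 and 4 together, chosen after seeing the data, 5 of the 10 genes were called in BL6J and 6 in CAST-F1. Fbxo30 was then the 1 gene of the set that differed between CAST-F1 and AJ-F1 WT. The number of all genes called is not given here for this setting, nor for BL6J fitted alone. Over all alternatives except single libraries left out, it was 2590 to 4303 in BL6J and 2304 to 4969 in CAST-F1. The main fit gave 2756 and 2498, so a higher count of the 10 genes is no result about the set. limma-voom called 1 gene, Foxo3, between CAST-F1 and BL6J WT. The cause of these changes was not tested.

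The replicate numbers did not pair the samples: deviations of 10 same-numbered pairs correlated at -0.229 to 0.0815, and 2 of 10 KO libraries correlated best with their own number. With a replicate block 2590, 3089 and 2304 genes were called in BL6J, AJ-F1 and CAST-F1, and 3 of the 10 genes in each. Fbxo30 had the fewest reads of the set, down to 16 in AJ-F1 WT 3 (2.62 CPM). That library held 7094686 counts in total, and CAST-F1 KO 3, the library with the lowest total (3848172), held 99 Fbxo30 reads.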

Other observations

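The ratio of Gabarapl1 to Map1lc3b CPM, both genes of the ATG8 family, separated all KO from all WT libraries. It ran from 0.194 in AJ-F1 WT 3 to 0.376 in AJ-F1 WT 2 among the 11 WT libraries and from 0.418 in BL6J KO 2 to 0.651 in BL6J KO 3 among the 10 KO libraries. Gabarapl1 alone also separated them, at 88.2 CPM or less in WT and 91.9 CPM or more in KO libraries. The separation by the ratio is therefore not a further result. The ratio was computed after the values of both genes were seen and was not tested.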
